A study of Homo sapiens with 12 samples.

Results

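The effect of silencing AGO2 alone was measured in MDA-MB-231 cells, an established triple-negative breast cancer cell line, by comparing the 3 arrays labelled sirnaAGO2 with the 3 arrays labelled cntrl, which are 6 of the 12 arrays of the study. The cntrl cells received control oligonucleotides for both the miRNA mimic (5 nM) and the siRNA (500 pM for 72 h). The sirnaAGO2 cells received Dicer-substrate siRNA against AGO2 at 500 pM for 72 h, and the labels do not say whether they also received the mimic control. The sequence of the siRNA, and how many different siRNAs were pooled, are not given in the sources used here. The other 6 arrays come from cells with the miR-145-5p mimic (mimic145) and with mimic and siRNA together (sirnaAGO2+mimic145), and they served to ask whether a change with silencing was also seen when the mimic was present. The labels describe biological triplicates, and arrays with the same replicate number were treated as pairs.

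AGO2 is 1 of 4 human Argonaute proteins, which hold mature miRNAs and bind mRNAs through the seed of the miRNA. Argonautes recruit the GW182 proteins (TNRC6A, TNRC6B and TNRC6C), which in turn bring the deadenylation and decapping enzymes that shorten the life of the target mRNA. AGO2 is the Argonaute known for cutting a fully paired target, and so it also serves siRNAs. Depleting an Argonaute can relieve repression of miRNA targets, and RNA levels further downstream can move in either direction.

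Each array was a single-color Agilent exon array, and a level below is the mean over the probes of a gene of the quantile normalized log2 signal, so that levels can be compared between arrays but not between genes. Between 67.6% and 73.4% of the spots of a cntrl array and between 69.1% and 74.1% of the spots of a sirnaAGO2 array were well above background. The 10 mesenchymal markers listed for this cell line, vimentin, CD44, AXL and CAV1 among them, were all measured above background, and 0 of them passed the test between the groups (limma, 2 at an unadjusted p under 0.05). Their summed log2 level ran from 15.4 to 15.5 in cntrl and from 15.3 to 15.5 in sirnaAGO2. All 6 arrays were at the same position of their slides, but no slide held both groups, so that slide and silencing cannot be told apart. Genes with low signal lay lower after silencing: the median log2 difference was -0.12 in the dimmest of 5 equal bins of genes and 0.01 in the brightest.

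AGO2 was lower in every sirnaAGO2 array. The cntrl arrays gave levels of 9.21, 9.14 and 9.01, and the sirnaAGO2 arrays 8.35, 8.44 and 8.42. The groups did not overlap, and the difference was -0.71 ± 0.08 on the log2 scale (SE, adjusted p = 0.00491, limma), which leaves 61.0% of the transcript. Each of the 19 kept probes along the gene was lower, by between 0.13 and 1.40 in size, with a median difference of -0.74. The two-sided exact permutation test of 3 arrays against 3 gave p = 0.1, the smallest p that this design allows. No paralog passed the test. AGO1 was at 7.51, 7.46 and 7.36 in cntrl and at 7.64, 7.56 and 7.53 in sirnaAGO2, a difference of 0.13 ± 0.06 (SE, adjusted p = 0.263) in which the arrays of the groups did not overlap, as for 19.1% of all genes. For AGO3 the difference was 0.00 and for AGO4 -0.06, and their groups overlapped. The GW182 genes TNRC6A, TNRC6B and TNRC6C had differences of 0.15, 0.11 and 0.14, with overlapping groups and adjusted p-values of 0.359, 0.481 and 0.349. AGO2 was the 1 called gene among the 7 genes of the silencing complex. Without sirnaAGO2 replicate 1 its adjusted p was 0.0522, and without any other single array of both groups it stayed under 0.05.

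**Figure D1:**
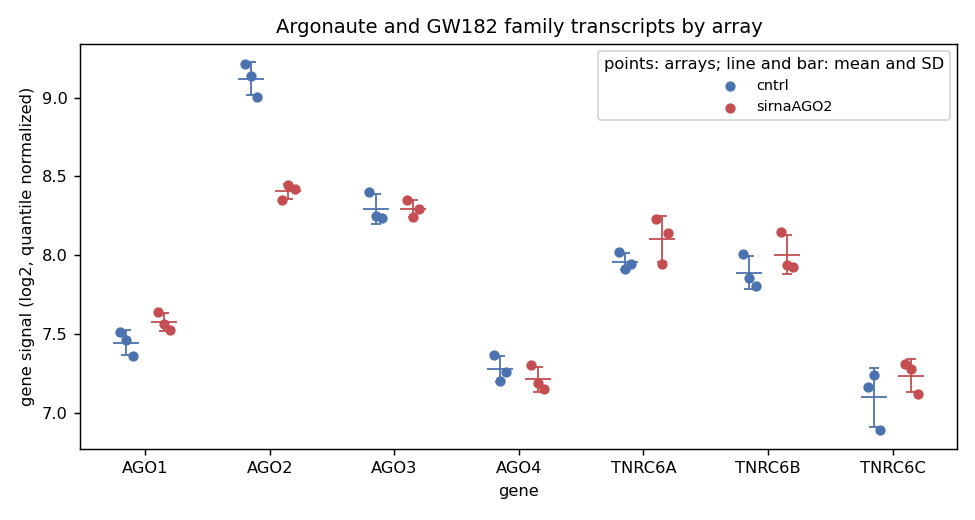
Level (log2, quantile normalized signal) of the 4 Argonaute and 3 GW182 genes in each cntrl and sirnaAGO2 array, with the mean and SD of 3 arrays; levels of different genes rest on different probes and cannot be compared. AGO2 lies between 9.01 and 9.21 in cntrl and between 8.35 and 8.44 in sirnaAGO2, while the other genes lie close together in both groups.

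Among all 18253 genes tested, 471 (2.58%) changed at an adjusted p under 0.05, 162 of them higher (0.888%) and 309 lower (1.69%) in sirnaAGO2. These shares are the background for the counts of called genes in lists. Changes were small: the median size was 0.48 on the log2 scale, 214 genes differed by more than 0.5, and 22 by more than 1, of which 20 were lower. The groups did not overlap for 427 of the 471, and for 19.1% of all genes. The calls rest on the same values, so this count is not separate from them. At an unadjusted p under 0.05, 3466 of the 18253 genes passed (limma), which is the background for the unadjusted counts of lists. How many genes are called depends on every array, since leaving out 1 of the 6 arrays left between 23 and 186 genes. Without any single array of sirnaAGO2 the counts were 23 (replicate 1), 61 (replicate 2) and 23 (replicate 3), without any of cntrl 26 (replicate 1), 186 (replicate 2) and 92 (replicate 3), and without all 4 arrays of replicate 1, 2 or 3 they were 1, 10 and 0. When the slide entered as a random block in place of the replicate block (the slide-block fit), 36 genes passed, 31 of them lower. This fit also drops the pairing, and 48 genes passed when the pairing was dropped without a slide term. A gene that did not pass in the slide-block fit is therefore not shown to depend on the slide.

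The deepest falls belonged to genes of different functions. COMMD8, a member of the COMMD family that takes part in endosomal sorting and NF-kB control, fell most. It was at 9.14, 9.20 and 8.87 in cntrl and at 7.28, 7.61 and 7.31 in sirnaAGO2, which leaves 31.4% of the transcript (difference -1.67 ± 0.10, SE, adjusted p = 0.000953). All 6 of its probes were lower, and it was the 1 called gene among the 10 COMMD genes tested. UFC1, the conjugating enzyme of the ubiquitin-like modifier UFM1, went from 10.54, 10.69 and 10.67 to 9.10, 9.70 and 9.41, a difference of -1.23, and was the 1 called gene of the 8 of the UFM1 pathway. SLC39A6, a zinc importer of the plasma membrane, went from 9.02, 9.09 and 9.44 to 7.90, 7.99 and 7.97, also a difference of -1.23. None of the 3 genes had overlapping groups. CHPT1, which makes phosphatidylcholine from diacylglycerol, fell by 1.07 on the log2 scale, and IFI16, a sensor of DNA in the nucleus, fell by 1.05 with all 11 probes lower. SHOC1, a meiotic gene at a low level in these cells, fell by 1.47 over 3 probes, of which 2 were well above background in sirnaAGO2.

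Subunits and partners of RNA polymerase III, which transcribes tRNA and other short RNA genes, moved in both directions. POLR3G and POLR3GL are paralogs, either of which can be built into the polymerase. POLR3GL fell from 9.86, 9.80 and 9.51 in cntrl to 7.99, 8.39 and 8.25 in sirnaAGO2 (difference -1.51 ± 0.14, SE, adjusted p = 0.00225), with all 7 probes lower. POLR3G rose from 7.53, 6.84 and 7.47 to 8.51, 8.05 and 8.33 (difference 1.01 ± 0.14, SE, adjusted p = 0.0143), with all 6 probes higher. In neither gene did the groups overlap. The other 8 polymerase III subunit genes tested did not pass. SNAPC1, a subunit of the complex that binds snRNA promoters for polymerases II and III, fell from 10.31, 10.26 and 10.23 to 8.96, 9.12 and 8.93, a difference of -1.26 with all 9 probes lower. It was the 1 called gene among 17 initiation factors of polymerase III and snRNA genes, a list chosen after values had been seen.

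The largest rises were about 1 on the log2 scale. PSAT1, an enzyme of serine synthesis, rose from 7.53, 7.78 and 8.08 to 8.82, 8.74 and 8.81 (difference 1.00 ± 0.15, SE, adjusted p = 0.0179). ARL6IP1, a membrane-shaping protein of the endoplasmic reticulum, rose by 0.92, and its groups, at 10.56 to 11.23 and at 11.71 to 12.01, did not overlap. E2F5, a repressive E2F transcription factor, rose from 6.69, 6.69 and 6.61 to 7.44, 7.39 and 7.49, with the smallest spread of these genes (difference 0.78 ± 0.08, SE, adjusted p = 0.00285). All 7 of its probes were higher, by between 0.43 and 1.68 with a median of 0.57. Of these probes, 5 were well above background in cntrl and 7 in sirnaAGO2. Other genes among the 12 largest rises were the histone chaperone family member TSPYL2 (0.74), the phosphatase-like UBASH3B (0.71), the Mediator kinase CDK19 (0.70), the hyaluronidase CEMIP2 (0.68), the laminin receptor subunit ITGA6 (0.67) and the axin-binding protein AIDA (0.64). CDK8, the paralog of CDK19, was also higher, by 0.58. EGR1, an immediate early transcription factor measured by 2 probes and so outside the 12, had the largest difference of all, 1.69, from 8.61, 7.68 and 8.67 to 10.16, 9.17 and 10.71. Neither CDK8 nor EGR1 passed in the slide-block fit (adjusted p = 0.339 and 0.386).

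**Figure D2:**
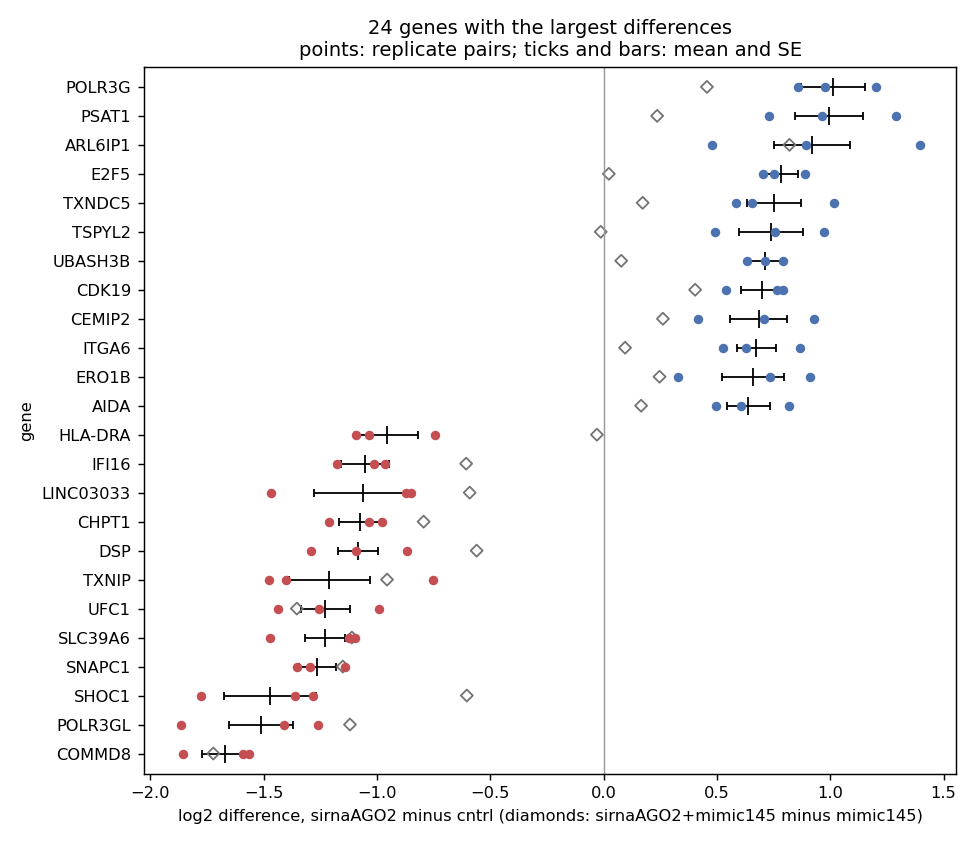
Log2 difference between sirnaAGO2 and cntrl for 24 called genes with at least 3 kept probes, the 12 that rose most and the 12 that fell most; points are the 3 replicate pairs, ticks and bars the mean and its SE, and open diamonds the mean difference between sirnaAGO2+mimic145 and mimic145. The diamonds lie near the points for COMMD8, SNAPC1, SLC39A6 and UFC1, and near 0 for HLA-DRA, E2F5 and TSPYL2.

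In the slide-block fit, 9 of the 12 falls and 3 of the 12 rises passed. The falls that did not were TXNIP, LINC03033 and HLA-DRA (adjusted p = 0.152, 0.120 and 0.163), and the rises that did were PSAT1, E2F5 and ITGA6. Without any 1 of the 6 arrays, 8 of the falls (COMMD8, POLR3GL, SNAPC1, SLC39A6, UFC1, DSP, CHPT1 and IFI16) and 1 of the rises (E2F5) passed each time.

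The genes of MHC class II, which present peptides from endosomes to T cells, were the family with the most falls. Of the 29 MHC and antigen loading genes tested, 10 were lower and 0 higher, against 1.69% lower among all genes, and the median difference was -0.29 at a median level of 10.1. All 10 were class II genes, of which 16 were tested with a median of -0.65. The class I genes, their pseudogenes, B2M, the TAP transporter and tapasin held 0 called genes of 13, with differences between -0.30 and -0.02. At an unadjusted p under 0.05, 19 of all 29 genes passed (limma). HLA-DRA, the shared alpha chain of HLA-DR, was at 11.50, 10.94 and 11.21 in cntrl and at 10.46, 10.20 and 10.12 in sirnaAGO2 (difference -0.96 ± 0.14, SE, adjusted p = 0.0160). HLA-DRB1 went from 12.54, 12.22 and 12.36 to 11.77, 11.70 and 11.72 (difference -0.65 ± 0.07, SE, adjusted p = 0.00655). In both genes the groups did not overlap and all 5 probes were lower. The beta chain genes HLA-DRB4, HLA-DRB5, HLA-DQB1 and HLA-DPB1 fell by between 0.65 and 0.77, as did the pseudogenes HLA-DRB6 and HLA-DPB2 (-0.79 and -0.68). HLA-DMA and HLA-DOA, which load and edit peptides, fell by 0.56 and 0.55 on the log2 scale. The groups overlapped for HLA-DRB6 and HLA-DOA and did not for the other 8. HLA-DPA1 and HLA-DMB were just outside the threshold, with differences of -0.69 and -0.66 and adjusted p-values of 0.0538 and 0.0520. The DRB genes are near-identical copies, and a probe may read more than 1 of them, so that their falls are not separate measurements. The invariant chain CD74, which occupies the class II groove until loading, went from 11.73, 11.60 and 11.62 to 11.23, 11.14 and 10.92 (difference -0.55 ± 0.11, SE, adjusted p = 0.0375). IFI30, the thiol reductase of antigen processing, fell by 0.39. Both of these were from a list of 11 class II partner genes chosen after values had been seen. The median difference of that list was 0.07, so that the partners as a list were not lower. Neither CD74 nor IFI30 passed in the slide-block fit (adjusted p = 0.131 and 0.283).

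Leukocytes carry class II genes, and their markers are given beside this family. Of the 6 leukocyte markers, 5 were tested and 0 passed (limma), LYZ being too dim, with a summed log2 level of 10.83 to 11.34 in cntrl and 11.01 to 11.31 in sirnaAGO2. CD14, measured by 1 probe, was the 1 marker with an unadjusted p under 0.05, and its difference of 0.32 (adjusted p = 0.174) was opposite in sign to that of the class II genes. In mimic cells CD14 was higher with silencing by 0.96 (adjusted p = 0.00573). Class II calls depended on the fit and on single arrays. In the slide-block fit, 2 of the 10 passed (HLA-DRB1 and HLA-DRB4). Genes of the family that passed numbered 0 without cntrl replicate 1, sirnaAGO2 replicate 1 or sirnaAGO2 replicate 3, 2 without sirnaAGO2 replicate 2, 6 without cntrl replicate 3 and 8 without cntrl replicate 2. Other scalings of the signal called 13 or 14 of them, and the fit without the filter on dim probes called 5.

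In cells with the mimic, 0 of the 16 class II genes passed with silencing. The 10 genes called with silencing alone differed by between -0.07 and 0.28 between sirnaAGO2+mimic145 and mimic145, with a median of 0.00. The mimic145 mean of all 10 lay below their sirnaAGO2 mean, and HLA-DRA was at 9.51 ± 0.41 (SD, n = 3) in mimic145 and at 9.48 ± 0.44 in sirnaAGO2+mimic145. The difference of the silencing effect between the arms did not pass for any of the 10, with adjusted p-values between 0.0511 and 0.150.

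**Figure D3:**
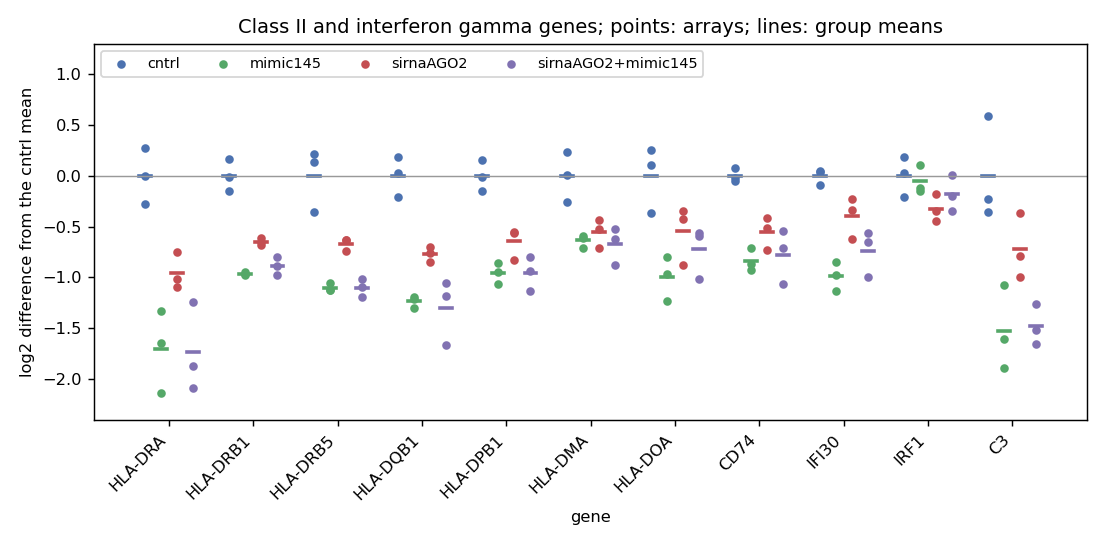
Log2 difference from the cntrl mean for class II genes, their partners CD74 and IFI30, and the interferon gamma genes IRF1 and C3, in each array of the 4 groups, with lines at the group means. HLA-DRA averages 0.96 below cntrl in sirnaAGO2 and lies still lower with the mimic, with or without silencing.

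Class II promoters are known for a shared module in which the X box binds RFX and the Y box, an inverted CCAAT box, binds NF-Y, and the module recruits the class II transactivator. The promoter sequences of called class II genes are shown because the members moved together. RefSeq promoters (GRCh38.p14, 250 bases before to 50 after the start) were found for 8 of the 12 called genes of the family and its partners. On either strand, GATTGG stood in 6 of the 8, where 15.1% of all 35116 promoters hold it, and GCAACNG, a stretch of the X box, in 3 of the 8, where 11.9% hold it. Both stood in 3, where 1.91% of all promoters hold both, and neither in CD74 or IFI30. Class II promoters are known for these boxes, so the counts were fixed by the choice of family and say nothing about silencing. Class II genes that were not called were not searched, and the promoters with both include the near-identical copies HLA-DRB1 and HLA-DRB5. The windows below read 5′ to 3′ on the strand of the gene, with the matched letters in capitals (CCAATC is GATTGG on the other strand, so that the HLA-DPB1 match is a CCAAT box in direct and not in inverted orientation). HLA-DRB1, HLA-DRB5 and HLA-DQB1 each hold a further match, not shown.
HLA-DRB1, X box part, chr6:32589909-32589938, minus strand: catctctgaccaGCAACTGatgatgctatt
HLA-DRB5, X box part, chr6:32530392-32530421, minus strand: catctctgaccaGCAACTGatgatactatt
HLA-DOA, X box part, chr6:33009674-33009703, minus strand: cctctttacccaGCAACAGatacattcact
HLA-DRB1, Y box, chr6:32589878-32589907, minus strand: aactcagatgctGATTGGttctccaacacg
HLA-DRB5, Y box, chr6:32530361-32530390, minus strand: aactcagatgctGATTGGttctccaacacg
HLA-DQB1, Y box, chr6:32666729-32666758, minus strand: agctccagtgctGATTGGttcttttccgag
HLA-DMA, Y box, chr6:32953160-32953189, minus strand: ctacgcttctctGATTGGtttagacaaaat
HLA-DOA, Y box, chr6:33009642-33009671, minus strand: gagaatttctgtGATTGGctgaagacagca
HLA-DPB1, direct CCAAT box, chr6:33075903-33075932, plus strand: ctcagactctgtCCAATCccagggtcacag

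The Y box windows of HLA-DRB1 and HLA-DRB5 were identical over their 30 bases, and the X box windows of HLA-DRB1, HLA-DRB5 and HLA-DOA stood 78, 122 and 100 bases before the annotated start. A match is only a run of letters, and nothing was measured at these promoters.

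Genes that respond to interferon gamma held several falls. Of 19 genes induced by interferon gamma, a list chosen after values had been seen, 5 were lower and 0 higher, with a median of -0.18. Among all genes 1.69% were lower and 0.888% higher. IRF1, a transcription factor induced by interferons, fell by 0.32. GBP2, a guanylate-binding protein, and UBA7, the activating enzyme of ISG15, each fell by 0.37. Complement C3 went from 9.30, 9.43 and 10.25 in cntrl to 8.66, 8.87 and 9.30 in sirnaAGO2, with all 43 probes lower and no overlap of the groups. The wider interferon list held 3 lower and 0 higher of 41, with a median of 0.01. TLR3, the endosomal receptor of double-stranded RNA, fell by 1.04 over 2 probes, and IRF1 was also a called member. In the slide-block fit, none of IRF1, GBP2, UBA7, C3 and TLR3 passed. In mimic cells IRF1, GBP2, UBA7 and C3 differed with silencing by -0.13, 0.02, 0.05 and 0.05, and none of these passed. The difference of the silencing effect between the arms did not pass for any of them either.

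Targets of abundant miRNAs were listed by the miRNA that is known to repress them. The mature miRNAs behind the lists are shown, as RefSeq gives them, with the seed (bases 2 to 8) in capitals. The let-7 members share 1 seed, as do miR-17-5p and miR-20a-5p.
hsa-let-7a-5p, chr9:94175962-94175983: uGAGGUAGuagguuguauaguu
hsa-let-7b-5p, chr22:46113691-46113712: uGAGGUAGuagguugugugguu
hsa-miR-98-5p, chrX:53556299-53556320: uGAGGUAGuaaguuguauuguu
hsa-miR-21-5p, chr17:59841273-59841294: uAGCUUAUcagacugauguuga
hsa-miR-17-5p, chr13:91350618-91350640: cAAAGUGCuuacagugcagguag
hsa-miR-20a-5p, chr13:91351072-91351094: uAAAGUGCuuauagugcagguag

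Few of the listed targets passed. Of 19 let-7 targets, 2 were higher (E2F5, 0.78, and DICER1, 0.41) and 0 lower, against 0.888% higher among all genes, and the median difference of the 19 was 0.05. The lowest estimate of the list was that of HMGA2, -0.32, which did not pass (limma, adjusted p = 0.116). DICER1, the enzyme that cuts miRNA precursors, was at 8.99, 8.70 and 9.08 in cntrl and at 9.38, 9.23 and 9.40 in sirnaAGO2, with all 28 probes higher and no overlap of the groups. It was also the 1 called gene among 22 genes of miRNA processing. DICER1 did not pass in the slide-block fit (adjusted p = 0.281) or without any single array or replicate, whereas E2F5 passed in the slide-block fit. Of 12 miR-21 targets, 0 were higher and 3 lower, against 1.69% lower among all genes. The 3 were the tropomyosin TPM1 (-0.60), the receptor tyrosine kinase antagonist SPRY1 (-0.56) and the actin-binding MARCKS (-0.42). None of these 3 passed in the slide-block fit (adjusted p = 0.0787, 0.315 and 0.212), and without single arrays or replicates 0 or 1 gene of the list passed. The median of that list was -0.19, and 10 of its 12 estimates lay below 0. Of 11 targets of the miR-17 seed, 0 passed (limma, 2 at an unadjusted p under 0.05). The levels of the miRNAs themselves were not measured, and seed sites in the transcripts were not searched. Among 39 genes of deadenylation, decapping and decay, the decapping enzyme DCP2 (0.48) and the deadenylase subunit CNOT11 (0.35) were higher and the deadenylase adaptor TOB1 (-0.33) was lower, and none of these 3 passed in the slide-block fit. HOXB8, known for a site cut by AGO2 through miR-196, was on the array but too dim to be tested.

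Several genes of protein folding in the endoplasmic reticulum were higher. Of 25 genes of the unfolded protein response, 2 passed, both higher, against 0.888% higher among all genes. The 2 were the chaperone HYOU1 (0.49) and the co-chaperone DNAJB11 (0.43). The median of the list was 0.18 at a median level of 10.2, with 20 of 25 estimates above 0, where 42.6% of all genes lay above 0. HSPA5, the master chaperone, had a difference of 0.40 that did not pass (adjusted p = 0.0801). TXNDC5, a thioredoxin-domain folding enzyme, went from 8.92, 9.36 and 9.53 to 9.94, 10.01 and 10.12, a difference of 0.75 with all 11 probes higher. ERO1B, which oxidizes such enzymes, rose by 0.66, with overlapping groups, and PDIA5 and QSOX2 rose by 0.40 and 0.43. These 4 were the called genes of 18 oxidoreductases, a list chosen after values had been seen. Of 35 genes of the amino acid response driven by ATF4, PSAT1 and the arginine transporter SLC7A1 (0.28) were higher, and the median was 0.16. Among 32 ribosome assembly genes, a list chosen after values had been seen, PNO1, IMP4, EBNA1BP2 and BYSL were higher, by 0.31 to 0.42, and the kinase RIOK3 was lower by 0.34 in size. In the slide-block fit, the unfolded protein response, oxidoreductase and ribosome assembly lists held 0 called genes, and the ATF4 list only PSAT1. TXNDC5, ERO1B, PDIA5 and QSOX2 had adjusted p-values of 0.0787, 0.486, 0.154 and 0.0787 there.

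Estimates for cell cycle genes lay mostly above 0. Of 39 genes of mitosis, 0 passed, while 37 of the 39 estimates were above 0 and the median was 0.21, at a median level of 10.0. At an unadjusted p under 0.05, 19 of them passed by limma. The median was between 0.17 and 0.21 under the other scalings, filters and summaries, which called between 0 and 3 genes, and between 0.15 and 0.28 without single arrays or replicates. HMMR, CCNA2 and CDC25C, which had the largest estimates of the list (0.63, 0.37 and 0.37), had adjusted p-values of 0.0585, 0.131 and 0.0591. The list of 46 DNA replication genes had a median of 0.14, with 1 gene called, the clamp loader subunit RFC1, which was lower (-0.46). Of 29 regulators of G1 and S phase, E2F5 and E2F3 (0.40) were higher, and the cyclin-dependent kinase inhibitor CDKN1B (-0.33) was lower. Of RFC1, E2F5, E2F3 and CDKN1B, E2F5 alone passed in the slide-block fit.

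**Figure D4:**
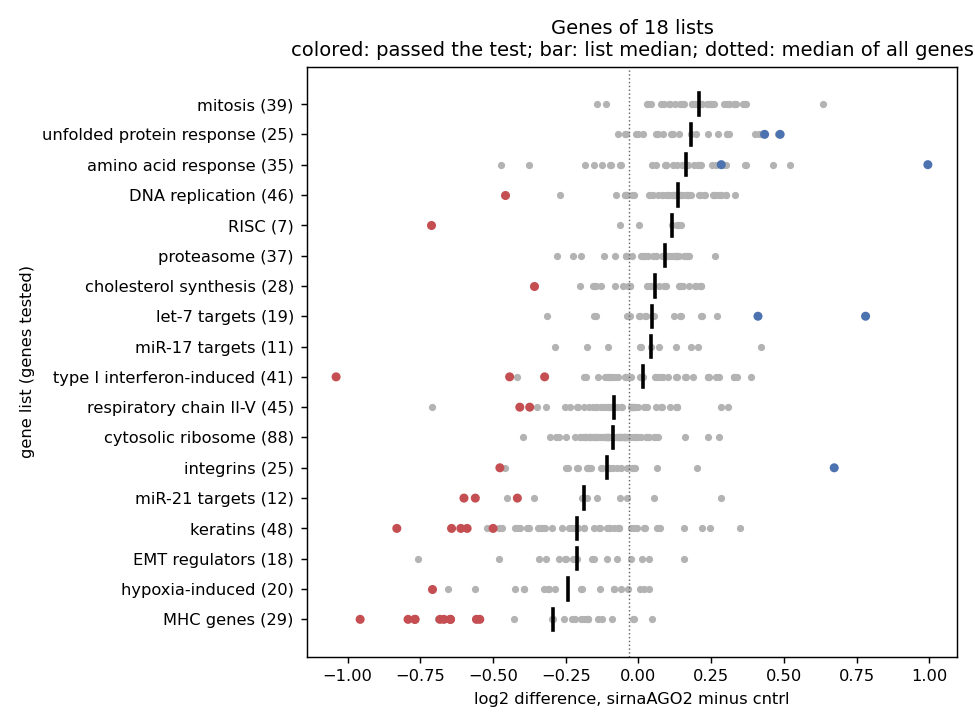
Log2 difference between sirnaAGO2 and cntrl for the genes of 18 lists, with the number tested in brackets; colored points passed the test, black bars are list medians and the dotted line is the median of all genes, -0.03. Of these lists the MHC list has the lowest median, -0.29, and the mitosis list the highest, 0.21, without a called gene.

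Some genes of epithelial junctions and keratin filaments were lower, and 1 was higher. DSP, the desmoplakin that ties desmosomes to keratin filaments, went from 9.54, 9.06 and 9.41 to 8.25, 8.19 and 8.32 (difference -1.08 ± 0.09, SE, adjusted p = 0.00136), with all 25 probes lower and no overlap of the groups. Among 18 desmosome and hemidesmosome genes, a list chosen after values had been seen, PERP (-0.47) and the hemidesmosome integrin ITGB4 (-0.48, all 37 probes lower) were also lower. ITGA6, the partner of ITGB4, was higher by 0.67 with all 27 probes, from 10.20, 10.37 and 10.19 to 11.06, 10.89 and 10.81. These were the 2 called genes among 25 integrins. In the slide-block fit DSP and ITGA6 passed, while PERP and ITGB4 did not (adjusted p = 0.0612 and 0.221). F11R, a tight junction adhesion molecule, fell by 0.69. Of 48 keratins, 5 were lower and 0 higher, against 1.69% lower among all genes, with a median of -0.21 at a median level of 8.45. The 5 were KRT72 (-0.83), KRT7 (-0.64), KRT6B (-0.61), KRT2 (-0.59) and KRT79 (-0.50). All 5 are type II keratins, whose sequences are alike, and only KRT7 among them was measured by more than 3 probes, so that shared signal between them was not tested. With silencing in mimic cells the estimates of all 5 were also below 0, given here by sign only. None of the 5 passed in the slide-block fit, where their adjusted p-values were between 0.120 and 0.272. The number of keratins called ran from 1 to 15 under the other scalings, filters and summaries, and from 0 to 5 without single arrays or replicates. No gene of 18 regulators and markers of the epithelial-mesenchymal transition passed (median -0.21 at a median level of 7.70, 9 with an unadjusted p under 0.05, limma), SNAI2 having a difference of -0.76 with an adjusted p of 0.0503.

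Among detoxification and redox genes, 4 aldo-keto reductases were lower. The aldo-keto reductases AKR1C1, AKR1C2, AKR1C3 and AKR1C4, which reduce steroids and reactive carbonyls, fell by between 0.61 and 0.70 on the log2 scale, from a list of 7 related genes chosen after values had been seen. AKR1C3, for example, went from 12.45, 11.85 and 12.36 to 11.78, 11.36 and 11.63. The 4 genes are close copies, and probes can be shared among them, so that they may stand for fewer separate falls. None of the 4 passed in the slide-block fit, with adjusted p-values between 0.216 and 0.368, and between 0 and 2 passed without single arrays or replicates. In mimic cells AKR1C1, AKR1C2, AKR1C3 and AKR1C4 differed with silencing by -0.04, -0.24, -0.20 and -0.26, and none of these passed. TXNIP, which binds thioredoxin and limits glucose uptake, went from 11.11, 10.22 and 11.46 to 9.71, 9.47 and 9.99 (difference -1.21 ± 0.18, SE, adjusted p = 0.0167), and its relative ARRDC3 fell by 0.58, with overlapping groups. Of 22 NRF2 targets, AKR1C1 and the ferritin light chain FTL (-0.32) were lower. Of 20 genes induced by hypoxia, ADM, the vasodilator peptide adrenomedullin, was the 1 called gene (-0.71), and the median of the list was -0.24 at a median level of 8.71. The number called in that list ran from 1 to 7 under the other scalings, filters and summaries, all lower, and in the slide-block fit none of ADM, TXNIP, ARRDC3 and FTL passed.

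Single members of signaling and death pathways also passed, where 0.888% of all genes were higher and 1.69% lower. In the TGF-beta list of 28 genes, the ligand genes INHBA (-0.88, 1 probe) and BMP4 (-0.49) were lower and the matrix protein CCN2 (0.51) was higher. Among 24 feedback genes of MAPK signaling, EGR1 and ETV5 (0.40) were higher and SPRY1 was lower. The phosphatases DUSP10, DUSP11 and DUSP16 fell by 0.54, 0.51 and 0.44, out of 20 DUSP genes. None of these 3 passed in the slide-block fit (adjusted p = 0.180, 0.163 and 0.190) or without any single array or replicate. APAF1, the core of the apoptosome, fell by 0.70 with 23 of 24 probes lower, and the caspase inhibitor BIRC3 fell by 0.46. Of 26 p53 targets the 1 called gene was TP53INP1 (-0.57). In the actin list of 53 genes TPM1 and the myosin heavy chain MYH9 (-0.51) were lower. Of the genes named in this paragraph, none passed in the slide-block fit. The cytosolic ribosomal proteins, 88 genes with a median of -0.09, and the proteasome, 37 genes with a median of 0.09, held 0 called genes each. At an unadjusted p under 0.05 (limma), 16 and 8 of them passed, where 3466 of all 18253 genes did.

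Silencing in the presence of the mimic was measured by the other 6 arrays, which share slides but no arrays with the comparison above. Between sirnaAGO2+mimic145 and mimic145, 788 genes changed (4.32%), 342 higher (1.87%) and 446 lower (2.44%). Called in both arms in the same direction were 121 genes (0.663% of all genes tested), 92 lower and 29 higher, which are 25.7% of the 471 and 15.4% of the 788. Of the genes lower with silencing alone 29.8% were among them, and of those higher 17.9%. Since the slides were the same, a difference between slides would enter both arms. AGO2 itself was lower by 1.06 in size in mimic cells.

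Among the deepest 12 falls, 9 were also called in mimic cells, and 2 of the 12 rises. COMMD8 differed by -1.67 in the control arm and by -1.72 in the mimic arm, where it was at 9.10 ± 0.27 (SD, n = 3) in mimic145 and at 7.38 ± 0.24 in sirnaAGO2+mimic145. UFC1 differed by -1.23 and -1.35, SNAPC1 by -1.26 and -1.15, SLC39A6 by -1.23 and -1.11, and POLR3GL by -1.51 and -1.12. POLR3G, which rose by 1.01 with silencing alone, had a difference of 0.46 in mimic cells that did not pass (adjusted p = 0.106). ARL6IP1 rose in both arms, by 0.92 and 0.82. Further genes that were lower in both arms, chosen after their values were seen, were the scaffold IQGAP1 (-0.92 and -0.84, 38 probes), the dynein assembly factor DNAAF2 (-0.91 and -1.10), the mannosidase MAN1B1 (-0.88 and -0.83) and the adhesion adaptor NEDD9 (-0.87 and -0.78). PSAT1, E2F5, TXNDC5, UBASH3B and ITGA6 had differences between 0.02 and 0.24 in mimic cells, and none of these passed. GXYLT2 and ANXA8L1, also chosen after their values were seen, were lower with silencing alone (-0.43 and -0.31) and higher in mimic cells (0.42 and 0.33), but the difference between the arms did not pass for either (adjusted p = 0.0614 and 0.0511).

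**Figure D5:**
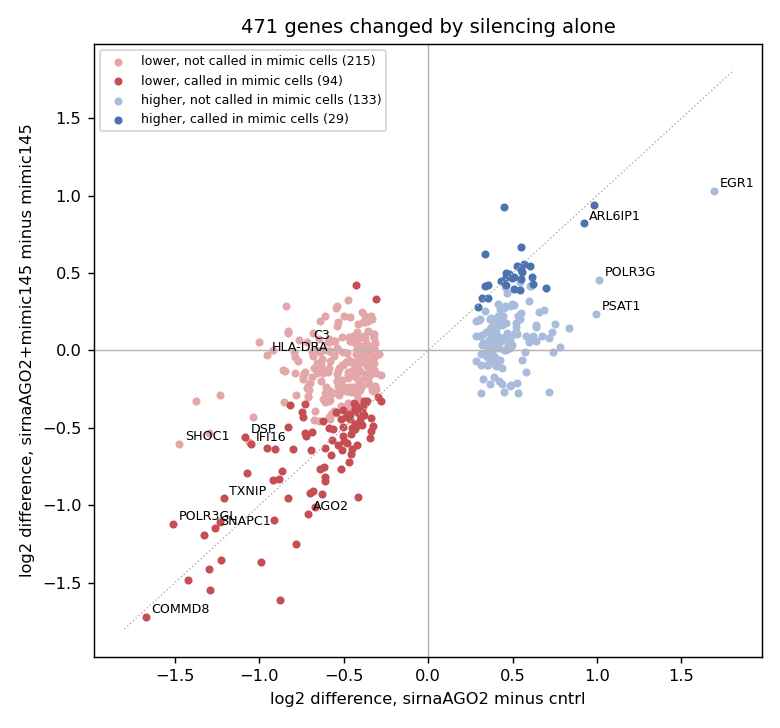
Log2 difference with silencing in mimic cells (vertical) against that in control cells (horizontal) for the 471 genes changed by silencing alone, colored by direction and by whether the gene was also called in mimic cells; the dotted line marks equal differences. COMMD8 and SNAPC1 lie close to the line, and HLA-DRA, C3 and PSAT1 lie near 0 on the vertical axis.

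The difference of the silencing effects between the arms was tested for every gene. It passed for 2 of all genes (0.011%) and for 0 of the 471 genes, the smallest adjusted p among them being 0.0511, and for 271 of them at an unadjusted p under 0.05 (limma). For no gene changed by silencing alone was the effect shown to differ in mimic cells by this fit. The standard error of that difference, 0.20 for HLA-DRA and 0.15 for COMMD8, limits what could be seen. When probes had to be above background on each of the 12 arrays, 291 of 16396 genes passed this test.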

How the data were processed

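RNA of MDA-MB-231 cells was hybridized to 12 arrays, 3 in each group that the labels give. The authors scanned them with Feature Extraction (10.7.3.1) and deposited processed spot signals, an intensity corrected for background and not normalized between arrays. The authors also deposited a log2 table of 217027 probes, used here as an alternative. Control and outlier spots were dropped, and intensities were quantile normalized over 12 arrays and log2 transformed. A probe was kept if every array of any one group had it well above background, and 142929 kept probes were averaged to 18253 genes through their accessions (RefSeq named 89.9% of all probes). The genes held a median of 5 kept probes, and 2835 of them held 1.

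The fit over 12 arrays (limma 3.58.1, R 4.3.3, data.table version 1.17.8, plots with matplotlib 3.10.9) had group and replicate number as terms, with two-sided tests and Benjamini-Hochberg adjustment over all genes at 0.05. The labels number the replicates and the study's methods test in pairs. Deviations from group means correlated at 0.305 to 0.517 between same-numbered cntrl and sirnaAGO2 arrays, and at -0.428 to -0.0797 otherwise. The deviations of 3 arrays sum to 0 in each group, so that the second range follows in part from the first. The median SE was 0.10. On simulated data for this comparison (18253 genes, 200 changed), 87.5% of changes of 1 and 41.0% of changes of 0.5 were recovered. Unchanged genes called in those runs numbered 11 and 4, and 0 were called where none was changed. The simulated noise was independent between arrays and held no slide effect, so these counts do not measure false calls from slides. Alternatives were other scalings, filters, probe summaries, blocks, tests and thresholds, and fits without single arrays or replicates.

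Named were the silencing complex, 12 rises and 12 falls ranked by size among called genes with at least 3 kept probes and 1 direction in 3 pairs, called genes of lists, and genes marked as chosen after values were seen. Members and lists were chosen with earlier results of these data known. Some genes that enter the counts are not reported here by name.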

Additional observations from a re-analysis of the deposited data

Results flagged for a closer look

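SAA2-SAA4, the readthrough transcript of a pair of serum amyloid A genes, was singled out by the test of the difference between the arms, since its silencing effect differed between control and mimic cells (limma). It did not pass with silencing alone, and it rests on 2 probes, which may also read SAA2 or SAA4. It was at 8.47 ± 0.37 (SD, n = 3 arrays) in cntrl and 8.31 ± 0.38 in sirnaAGO2, and at 6.75 ± 0.38 in mimic145 and 7.67 ± 0.43 in sirnaAGO2+mimic145. The effects were thus -0.16 and 0.92, a difference of 1.08 ± 0.11 (SE, adjusted p = 0.0350). All 3 replicate pairs were lower in control cells and all 3 were higher in mimic cells.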

How the results depend on the processing

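The number of genes changed by silencing alone (471), by silencing in mimic cells (788), in both arms (121) and between the arms (2) moved with the processing, and the causes were not tested. These 4 counts were 828, 1183, 207 and 150 with normexp, and 1117, 1390, 285 and 291 with probes above background on each of the 12 arrays. They were 791, 1253, 195 and 241 with genes of at least 3 kept probes, which tests fewer genes. With the median over probes the first 3 were 236, 357 and 55. With the slide as a random block all 4 were 36, 90, 13 and 30. At an adjusted p under 0.01 they were 44, 121, 19 and 0, and with a difference over 0.5 the first 3 were 214, 296 and 54. The methods' paired test gave 3187, 2216, 375 and 1888 at a p of at most 0.05 and 0 in each after Benjamini-Hochberg. Fitted to the arrays compared, the first 3 were 235, 0 and 0. Without the filter on dim probes 80 genes passed in both arms and 5 between them, the authors' log2 table gave 33 between the arms, and an intensity trend 99. Without single arrays or replicates the counts ran from 0 to 186 with silencing alone, from 0 to 806 in mimic cells and from 0 to 60 in both arms, and were 0 between the arms.

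Without the replicate block, that is without the pairing, 48, 100, 15 and 0 genes passed, and 22 of 137 named called genes were among the 48.

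The share of calls that were higher was 34.4% and became 46.1% with at least 3 kept probes, 24.7% with only the arrays compared, 13.9% with the slide block and 12.5% without the replicate block. Scaling by the 75th percentile moved the median of all genes from -0.03 to -0.09. AGO2 kept its direction under all 24 alternatives, at -0.71 by the methods' paired test (adjusted p = 0.240, no moderation) and at -0.78 to -0.64 without single replicates or arrays, with adjusted p-values of 0.221, 0.114 and 0.166 without replicate 1, 2 and 3. Of 3406 alternative values for named genes 3405 kept their sign. The exception was CXCR4, which went from -0.59 to 0.0701 without the filter on dim probes. Signal over background limits what can be said of dim genes, and 3 arrays a group limit the rest.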

Other observations

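Called genes were 2.58% of all genes, and several groups held none. An unadjusted p under 0.05 (limma) was found for 3466 of all 18253 genes. By limma, 0 of 14 host genes of miRNAs passed (4 at an unadjusted p under 0.05), 0 of 32 genes of Polycomb and DNA methylation (5), 0 of 44 collagens (3), 0 of 26 HOX genes (2) and 0 of 55 translation initiation factors (4). Of 28 cholesterol synthesis genes the 1 called gene was INSIG2, which holds the sterol sensor in the endoplasmic reticulum and was lower (-0.36). Of 478 zinc finger genes 3 were lower and 0 higher. Solute carriers, 362 genes, held 7 higher and 5 lower (3.31% in all), close to the 2.58% of all genes, and the difference was not tested. Their counts ran from 1 to 13 higher and from 4 to 12 lower under the other scalings, filters and summaries. The slide-block fit called 3 of them, all lower.

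The 2 genes of markers for other cell types that passed were at the edge of detection. LUM, a fibroblast proteoglycan, and PECAM1, an endothelial adhesion molecule, were not well above background in sirnaAGO2, and cntrl was at least 1.72-fold and at least 1.60-fold higher. LRFN5, a synaptic adhesion gene chosen after its values were seen, was likewise not well above background in sirnaAGO2, and cntrl was at least 1.28-fold higher. These folds are the cntrl mean over the higher of the probe's own signal and the lowest signal well above background on each sirnaAGO2 array.

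Genes of a natural killer cell receptor family, chosen after their values were seen, were lower with silencing in both arms. KLRC4 was at 7.15, 6.72 and 8.02 in cntrl and at 5.88, 5.33 and 6.42 in sirnaAGO2, a difference of -1.42 with no overlap of the groups. KLRC2 and KLRC3 differed by -1.33 and -1.30, and in mimic cells KLRC4, KLRC2 and KLRC3 differed by -1.48, -1.19 and -1.41. KLRC1 had a difference of 0.07 that did not pass (adjusted p = 0.939). The family members are close copies measured here by 1 or 2 probes each, so that the falls may not be separate, and signal shared between them was not tested.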
